A study of Homo sapiens with 9 samples.

Results

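The 680 regions described here were open, as read by peak calls, in every vehicle library and in every library given the stereoprobe WX-02-43, and had no peak of matching rank in any library given WX-02-23. They were chosen by the rank and presence of peak calls in these same 9 libraries. ATAC-seq peaks mark DNA that a transposase can reach. From each of the 9 lists, the peaks with the highest −log10 p on chromosomes 1 to 22 and X were kept, as many as the shortest list (DMSO replicate 1) holds. The last rank retained is called the kept rank. Kept intervals that shared at least 1 bp were merged, which gave 110055 regions. A region was taken when a kept peak overlapped it in all 3 DMSO and all 3 WX-02-43 lists and in none of the 3 WX-02-23 lists. The 680 regions are 0.618% of all merged regions and 1.16% of the 58804 held by all 6 DMSO and WX-02-43 lists. These shares are set by the rule, so the contrast between WX-02-23 and the other libraries is described below and not tested.

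All 9 libraries came from 22Rv1, a human prostate carcinoma line, edited so that the splicing factor SF3B1 carries the C1111S change. The labels do not say whether the edited cells are 1 clone. Cells received 0.1% DMSO (the vehicle), 20 µM WX-02-23 or 20 µM WX-02-43, each for 3 h and each with 3 libraries. Nothing in the labels tells whether the replicates are separate cultures, so each p-value reflects the spread among these libraries alone, which may be technical.

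FOXA1, the factor that the study concerns, is a pioneer factor: it binds its sites on nucleosomal DNA and helps to open them for other factors. In luminal prostate cells many of its sites are enhancers that the androgen receptor also occupies. Enhancers often lie far from gene starts and give weaker and narrower ATAC-seq peaks than promoters do. SF3B1 is a core subunit of the splicing machinery, and cells whose SF3B1 has lost the targeted cysteine let effects on other proteins be read. No sequence or gene annotation of the hg19 build was used here, so the regions are given by position, without gene names or letters.

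The label "closed" holds only in part. Of the 680 regions, 274 (40.3%) had no peak in any WX-02-23 list as deposited, whatever its rank. The other 406 (59.7%) had a weaker WX-02-23 peak below the kept rank in at least 1 list: 240 regions in 1 list, 134 in 2 lists and 32 in all 3. The set is therefore named by its rule, as regions with no kept WX-02-23 peak. Where a list has no peak, accessibility may still have been present below the calling threshold. The reverse look-up took the 916 regions kept in all 3 WX-02-23 lists and in none of the other 6. Of these, 379 (41.4%) had a peak below the kept rank in at least 1 of the other 6 lists. The lists differ in length past that rank, from 0 added peaks in DMSO replicate 1 to 23170 in WX-02-23 replicate 1.

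The regions were of moderate to low strength in the libraries that held them. At the summit, the median fold enrichment over the local background (the authors' value per peak) was 6.07, 6.92 and 7.58 in DMSO replicates 1 to 3, and 6.28, 6.71 and 6.66 in WX-02-43 replicates 1 to 3. The group means of these medians were 6.86 ± 0.757 in DMSO and 6.55 ± 0.237 in WX-02-43 (SD, n = 3 each), so the groups overlapped. Regions held by all 9 lists stood higher in the same libraries, at 9.36 ± 0.58 in DMSO and 8.8 ± 0.213 in WX-02-43 (SD, n = 3 each). The number of fragments stacked at the summit, solved from the fold and the p-value, gave the same picture. Its median was 15, 16 and 19 fragments in the DMSO libraries and 15, 18 and 19 in the WX-02-43 libraries. Over the regions held by all 9 lists, the median summit held 36 fragments. Sets held by fewer lists were as weak or weaker. The 916 regions kept in all 3 WX-02-23 lists and in none of the other 6 had medians of 6.49 fold, 16 fragments and a rank at 74.9% of the list. The 4057 other regions held by exactly 6 of 9 lists had 5.87 fold, 15 fragments and 81.7%, against 6.71 fold, 17 fragments and 68.5% for the 680.

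By rank, few of these regions were near the top. Between 11.8% and 17.6% of the 680 were in the first 50% of any 1 list, and their median rank lay at 67.5% to 70.4% of the list. When each region was placed by its lowest rank over the 6 lists, the median stood at 87.9%, against 43.6% for regions held by all 9 lists. Only 22 regions (3.24%) were in the first 50% of all 6 lists, and 294 (43.2%) had their lowest rank in the last 10% of a list, against 6.32% of the regions held by all 9. The lowest of the 6 ranks fell in DMSO replicate 2 for 147 regions and in DMSO replicate 3 for 90, with the other libraries between, so no single list set the lower edge.

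The share of regions that no WX-02-23 list held was larger among weaker regions. Regions held by all 6 DMSO and WX-02-43 lists were ordered by their mean rank over these lists. None of the 7998 regions with a mean rank in the first 10% of the list, and none of the 7892 from there to 20%, lacked a kept peak in all 3 WX-02-23 lists. The share was 0.0259% (2 of 7712) up to 30%, 0.247% up to 40% and 0.586% up to 50%. It was 1.38%, 2.57%, 4.72% and 8.57% in the bins ending at 60%, 70%, 80% and 90%, and 7 of only 44 regions in the last. Weaker regions also lie nearer to the kept rank, and the parts of threshold and treatment in these shares cannot be told apart.

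**Figure D1:**
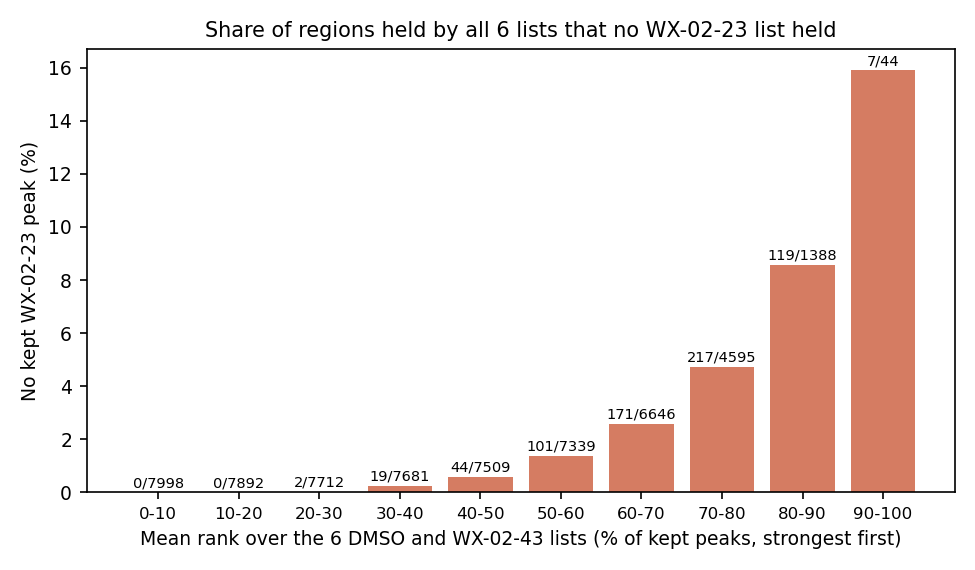
Bars give the percentage of regions held by all 6 DMSO and WX-02-43 lists that no WX-02-23 list held, by mean rank over the 6 lists in bins of 10% of the kept peaks (x axis, strongest first), with counts above each bar. The share is 0 in the first 2 bins and 8.57% (119 of 1388) in the bin ending at 90%, while the last bar rests on 44 regions.

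Where a deposited WX-02-23 list still had a peak, it was weak. WX-02-23 replicate 1 had such a peak at 341 of the regions, replicate 2 at 133 and replicate 3 at 130. These lists run past the kept rank by 23170, 10334 and 8711 peaks, and the regions found make up 1.47%, 1.29% and 1.49% of those added peaks. Read to the same rank of 90673 in all 3 lists, the numbers were 127, 117 and 130 regions, with 274 found in at least 1 list. The larger count of replicate 1 thus came with its longer list.

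The weaker WX-02-23 peaks had a median fold of 4.72 in replicate 1, 4.49 in replicate 2 and 4.71 in replicate 3. Over the same regions, the mean fold of the 6 DMSO and WX-02-43 libraries had a median of 6.9, 6.97 and 6.79. Per region, the WX-02-23 fold was a median of 0.696, 0.668 and 0.678 times that mean. The WX-02-23 fold was below that of each of the 6 other libraries at 81.5% of the regions found in replicate 1, 92.5% in replicate 2 and 87.7% in replicate 3. The WX-02-23 summit held fewer fragments than each of the 6 other libraries at 60.1% of the regions for replicate 1, 92.5% for replicate 2 and 85.4% for replicate 3. Median pileups were 11, 9 and 10 fragments, against 17, 16 and 18 in the other 6 libraries. Libraries differ in depth and these fragment numbers are not scaled. The commonest background was 1.33 fragments in WX-02-23 replicate 1 but 1 and 1.1 in replicates 2 and 3. It was 1.14, 1.09 and 1.23 in DMSO replicates 1 to 3 and 1.22, 1.38 and 1.41 in WX-02-43 replicates 1 to 3. The part of depth in the fragment comparison was not tested. The choice of regions requires the low WX-02-23 values.

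**Figure D2:**
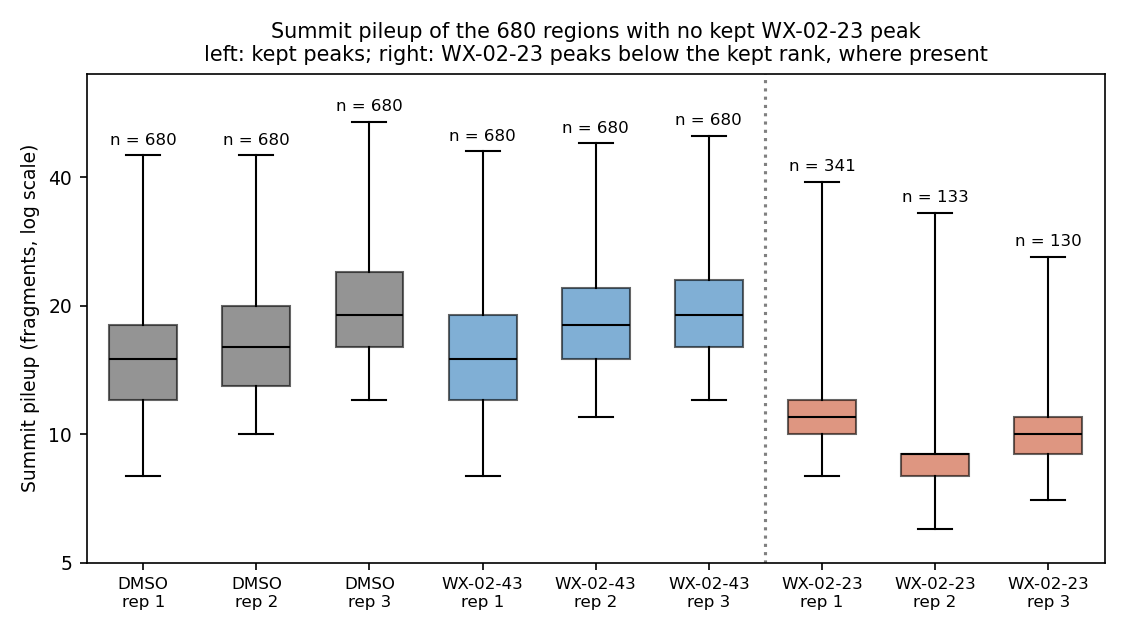
Boxes give the summit pileup in fragments (log axis) at the 680 regions in each library, with the median, the quartiles and whiskers to the lowest and highest value; DMSO is grey, WX-02-43 blue and WX-02-23 orange, and for WX-02-23 only the 341, 133 and 130 regions with a peak below the kept rank are drawn. Medians are 15 to 19 fragments in the 6 boxes on the left and 9 to 11 in the 3 on the right.

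The regions that lacked any deposited WX-02-23 peak had nearly the same strength elsewhere as the rest. Their median in the DMSO and WX-02-43 libraries was 17 fragments and 6.6 fold, against 17 fragments and 6.71 fold for regions with a weak peak in 1 or 2 WX-02-23 lists, and 18 fragments and 7 fold for those with a weak peak in all 3. Over the commonest background, the WX-02-23 lists called peaks from 6 or 7 fragments upward. Of the 274 regions, 116 (42.3%) had at least 2 times the higher of these floors in each of the 6 other libraries. The floors hold only at the commonest background, and over a higher local background more fragments are needed for a call. The count therefore does not show that these regions stood clear of the calling limit.

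The 20 regions with the best lowest rank over the 6 lists show the pattern at its clearest. They lay on 12 chromosomes, were 392 to 767 bp wide, and in their poorest list stood at 35% to 48.1% of the kept peaks. Fold enrichment over all 6 lists ran from 6.92 to 15.9, with 18 to 49 fragments at the summit. In the deposited WX-02-23 lists, 8 of the 20 had no peak, 9 had a peak in 1 list and 3 in 2 lists, of 3.75 to 5.58 fold and 8 to 13 fragments. Every WX-02-23 value found was thus below every value of the other 6 libraries for these 20 regions, as their choice favours. Only the 8 without a peak meet the rule when the deposited lists are used in full, which follows from their definition. When lists are ranked by fold, 13 of the 20 meet the rule.

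The first, chr10:70261333-70261936 (604 bp), had folds of 10.61, 11.45 and 12.55 in DMSO replicates 1 to 3 and 10.22, 10.86 and 12.83 in WX-02-43 replicates 1 to 3, with 25 to 33 fragments. WX-02-23 replicate 1 had a peak there of 4.72 fold and 10 fragments, at rank 96062, and replicates 2 and 3 had none. All 6 summits lay within 7 bp. The DMSO and WX-02-43 values interleave, and the WX-02-23 value lies well under both.

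On chromosome 4, chr4:169422339-169422959 reached the highest fold of the 20. It had 11.34, 13.12 and 15.9 fold in DMSO and 13.44, 11.01 and 14.26 with WX-02-43, with 27 to 49 fragments. Its only WX-02-23 peak, in replicate 3, had 4.76 fold and 9 fragments. Another region of that chromosome, chr4:71995375-71995791, had 10.34, 10.31 and 13.77 fold in DMSO and 10.28, 11.38 and 10.7 with WX-02-43, against 4.29 fold in WX-02-23 replicate 1 alone. The DMSO and WX-02-43 groups overlap at both regions.

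At chr13:80801244-80801828 the folds were 11.5, 11.49 and 12.8 in DMSO and 12.14, 13.49 and 12.08 with WX-02-43, and only WX-02-23 replicate 1 had a peak, of 4.72 fold. The next by rank, chrX:125000211-125000859, had 11.14, 11.82 and 12.77 fold in DMSO and 12.16, 12.22 and 12.67 with WX-02-43. It had 5.15 fold in WX-02-23 replicate 1 and no peak in the others. This region stood alone: the nearest region held by all 9 lists was 298576 bp away.

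The strongest region with no deposited WX-02-23 peak at all was chr2:50945300-50945973. Its summits held 31, 35 and 42 fragments in the DMSO libraries and 26, 31 and 31 in the WX-02-43 libraries. The folds were 9.98, 11.03 and 12.59 in DMSO and 9.49, 9.5 and 9.21 with WX-02-43. Here all 3 DMSO folds were above all 3 WX-02-43 folds, but the difference in rank score (defined below) did not pass the test across regions (−0.23 ± 0.1 SE, limma adjusted p = 0.689). A region held by at least 1 WX-02-23 list lay 1918 bp away.

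The next region of this kind, chr3:64486930-64487621, had 25, 27 and 42 fragments in DMSO and 28, 40 and 36 with WX-02-43. Next came chr6:78363505-78364079 with 21, 25 and 32 and with 23, 29 and 25 fragments, and chr9:81125003-81125502 with 23, 23 and 25 and with 22, 28 and 23. In each of these 3 regions the DMSO and WX-02-43 libraries overlapped, and WX-02-23 peaks were missing from all 3 lists. The remaining 4 were chr3:133449644-133450319, chr11:35134259-35134692, chr1:49655622-49656241 and chr1:12428598-12429075, whose 6 pileups ran from 18 to 40 fragments. At chr9:81125003-81125502 the 6 summits lay within 24 bp.

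Among the 20, 3 kept a weak peak in 2 WX-02-23 lists. At chr9:22455023-22455701, folds were 8.57, 10.63 and 9.18 in DMSO and 9.54, 8.41 and 9.25 with WX-02-43, against 4.92 and 4.71 in WX-02-23 replicates 1 and 2. The other two were chr8:69060884-69061275, with 5.15 and 4.29 fold in WX-02-23 replicates 1 and 3, and chr2:38093366-38094107, with 5.44 and 4.76. That last WX-02-23 replicate 1 peak stood at rank 82120, below the kept rank. Those left, chr18:62930832-62931328, chr1:230634328-230635094, chr2:81324366-81324905 and chr9:128103672-128104283, each had a weak peak in 1 list.

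**Figure D3:**
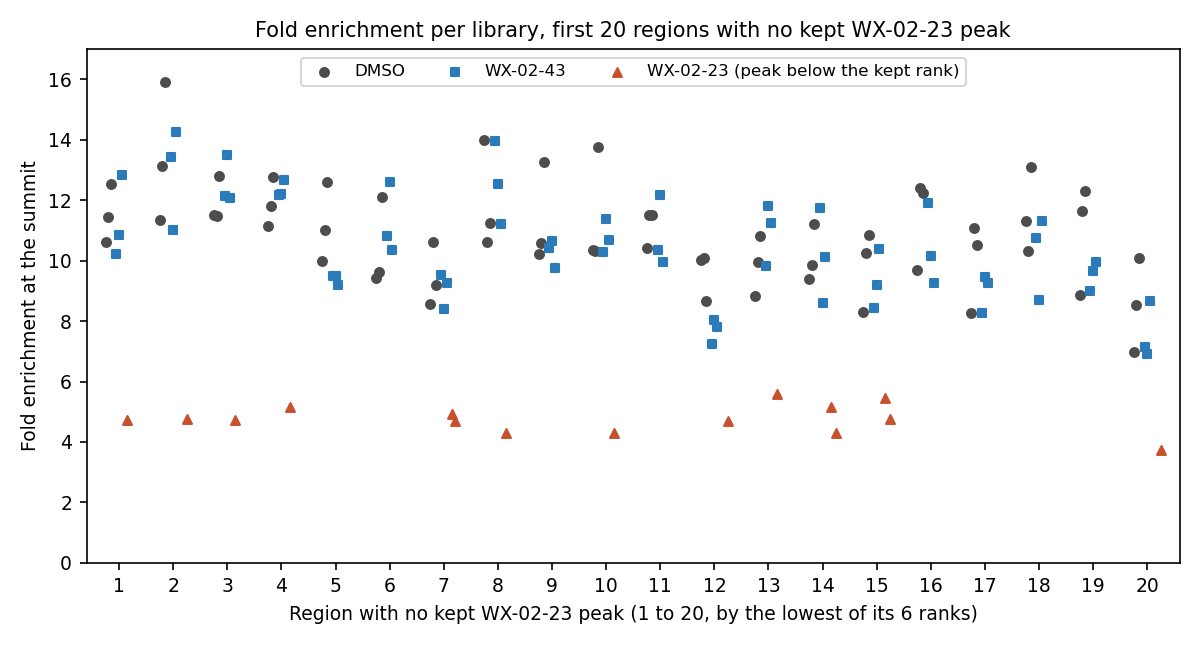
Points give the fold enrichment at the summit (y axis) in each library for the first 20 regions by lowest rank (x axis), with circles for DMSO, squares for WX-02-43 and triangles for WX-02-23 peaks below the kept rank. Circles and squares run from 6.92 to 15.9 and mix within most regions, and the triangles, present at 12 regions, run from 3.75 to 5.58.

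The members with the poorest lowest rank were weak in all 6 lists. The last region inside, chr6:158877095-158877688, had 6.07, 5.49 and 6.9 fold in DMSO and 6.64, 5.87 and 4.9 with WX-02-43, the last exactly at the kept rank, and 5.43 fold in WX-02-23 replicate 1. The 4 before it were chr3:131113265-131113764, chr3:110853216-110853527, chr15:91768018-91768341 and chr12:39221421-39221707. Their 6 pileups ran from 9 to 19 fragments.

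Outside the rule, 919 regions were held by all 6 DMSO and WX-02-43 lists and by 1 WX-02-23 list: replicate 1 held 378, replicate 2 held 286 and replicate 3 held 255. A further 2293 were held by 2. Those of the 919 held by WX-02-23 replicates 1, 2 and 3 had a median fold of 6.7, 6.61 and 6.59 in the other 6 libraries. The median of the 680 was close, at 6.71. The 5 with the best lowest rank among the 919 are given here. They were far stronger than the last members inside, as a choice from opposite ends of the sets implies. The first was chr3:25638964-25639983, with 40, 45 and 54 fragments in DMSO, 49, 57 and 60 with WX-02-43, and 17 in WX-02-23 replicate 3. It was followed by chr12:77556619-77557282 with 33 to 48 fragments against 16 in replicate 1, and by chr16:65030468-65031081 with 24 to 40 against 10 in replicate 2. Both chr12:61053971-61054468 and chr1:70097364-70098083 had 21 to 38 fragments against 11 and 9. A single WX-02-23 peak, weaker than all 6 others at each of these regions, kept them out.

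WX-02-43 against DMSO is a comparison in which the rule favours neither direction, since it treats these groups alike. The rule still requires a kept peak in all 6 lists, so regions lost in either group are left out and large differences are limited. Each region's rank among the kept peaks was turned into a normal score, on which 0 is the middle of the list and higher is stronger, and the scores were compared with limma over the 58804 regions held by all 6 lists. No region passed an adjusted p of 0.05 in either direction (0.0% called, smallest adjusted p = 0.405), and none of the 680 did. With trended, robust variances limma called 1 region higher and 11 lower, and on log2 fold enrichment 1 lower, none of them among the 680. At an unadjusted p under 0.05, 4386 regions passed. Among the 680 these were 60 higher with WX-02-43 (8.82%, against 3.64% of all regions tested) and 30 lower (4.41%, against 3.81%).

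The median difference over the 680, WX-02-43 minus DMSO, was 0.065 score units with quartiles of −0.207 and 0.305, against −0.005 with quartiles of −0.132 and 0.12 over all regions tested. The differences of the 680 spread more widely, and their median standard error was also larger, 0.247 against 0.146. All 3 WX-02-43 ranks were above all 3 DMSO ranks at 58 regions (8.53%, against 6.73% of all tested) and below at 39 (5.74%, against 6.96%). That no region passed does not show that WX-02-43 acted like the vehicle at these sites.

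**Figure D4:**
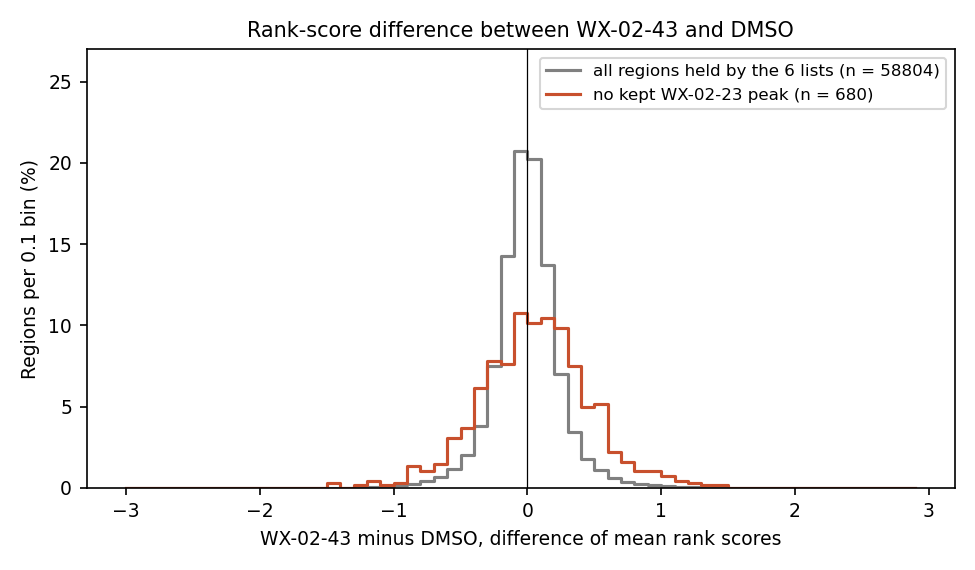
Lines give the percentage of regions in bins of 0.1 by the difference of mean rank scores, WX-02-43 minus DMSO (x axis), for all 58804 regions held by the 6 lists (grey) and for the 680 with no kept WX-02-23 peak (orange). Both centre near 0 (medians of −0.005 and 0.065), and the 680 spread more widely.

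The smallest p-values among the 680 went to chr1:72948536-72948991, with 10, 11 and 13 fragments in DMSO and 16, 21 and 16 with WX-02-43. The score difference was 1.07 ± 0.16 SE (limma adjusted p = 0.405). Next were chr1:69109941-69110395 with 1.07 ± 0.16 and chr6:69876647-69877151 with 0.69 ± 0.13 (limma adjusted p = 0.405 and 0.448). In all 3 the groups did not overlap in rank, though none passed the correction.

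In the other direction stood chr1:78400614-78400927, with 6.53, 8.11 and 8.25 fold in DMSO and 4.5, 5.87 and 5.6 with WX-02-43. Its score difference was −1 ± 0.21 SE (limma adjusted p = 0.487). It was followed by chr1:77028069-77028656 with −0.54 ± 0.11 and chr7:114653938-114654401 with −0.64 ± 0.14 (limma adjusted p = 0.487 and 0.518). The last had 9.8, 9.11 and 9.13 fold in DMSO and 5.85, 6.71 and 7.05 with WX-02-43, so the lowest DMSO value was above the highest WX-02-43 value.

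The rule set no condition on width or summit position, though the extent of the peaks entered it through merging and overlap. A merged region spans the peaks of every list that holds it. The 680 regions had a median width of 413.5 bp (quartiles 347.75 and 513.5), close to the 408 bp of all merged regions. The 680 were wider than the 4057 other regions held by exactly 6 of 9 lists (339 bp) and narrower than regions held by all 9 (643 bp). Single kept peaks within them were 303 bp wide at the median, with 234 bp and 468 bp in those sets and 297 bp in the 916 regions kept only with WX-02-23, and 97.9% of the regional calls were a single peak. Where each of the 6 lists had a single peak (622 regions), the 6 summits spread over a median of 119 bp. That spread was 73 bp for regions held by all 9 lists and 96 bp for regions held by the same 6 lists and 1 or 2 WX-02-23 lists. It was at most 50 bp in 8.52% of the 622, against 24.6% and 13.8%. Pileup moved with this difference (medians of 17 and 36 fragments), and its part was not tested.

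The widest were chr12:63033529-63034513 (985 bp), chr9:123390746-123391709 (964 bp) and chr3:24670883-24671841 (959 bp). Width came with scattered summits at the first, where the 6 lay up to 657 bp apart. At the second they lay within 69 bp, with 21, 31 and 39 fragments in DMSO and 22, 17 and 23 with WX-02-43. The third lay 190 bp from a region held by all 9 lists.

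Chromosomes differed in how many of their regions belonged to the set. Over all chromosomes there were 6.18 per 1000 merged regions. Chromosomes 18 and 2 had the highest rates, 8.42 (21 of 2495) and 8.4 (63 of 7501), followed by 5, 3, 9, 4 and X at 7.5 to 7.76. Chromosome 19, known for its many genes, had 1.23 (5 of 4081) and chromosome 22 had 2.01 (4 of 1991). Chromosomes 11, 16 and 17 lay between, at 3.81, 4.29 and 4.31. The 916 regions kept in all 3 WX-02-23 lists and in none of the other 6 were also sparse on chromosomes 19 and 22 (1.47 and 4.02 per 1000, against 8.32 over all). On chromosome 9 the rates went apart, with 7.65 against 4.73, and on chromosome 11 the other way, with 3.81 against 9.06; these differences were not tested. Strength moved with the low rate of chromosome 19, where regions held by the 6 lists had a median mean rank at 27.3% of the list, against 33.5% to 41.3% on the other chromosomes, and its part was not tested.

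**Figure D5:**
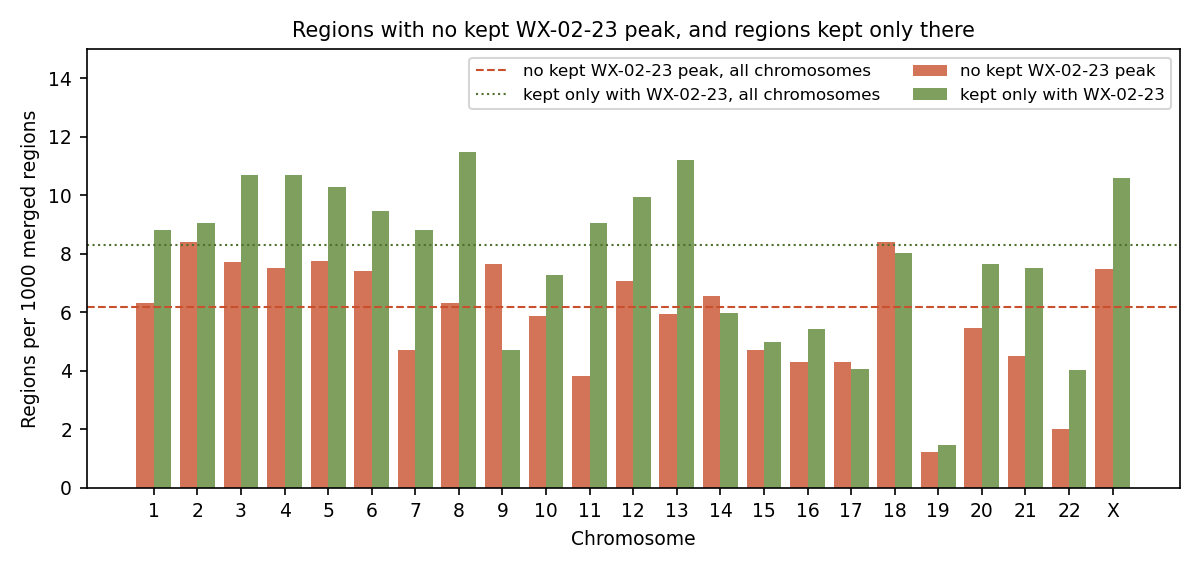
Bars give regions per 1000 merged regions on each chromosome, for the 680 with no kept WX-02-23 peak (orange) and the 916 kept only with WX-02-23 (green), and lines mark the rates over all chromosomes (6.18 and 8.32). Both kinds are lowest on chromosome 19, at 1.23 and 1.47.

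The spacing of the regions was close to that of merged regions at large. Another of the 680 lay within 100 kb of 34 (5%), against 5.27% of all merged regions. No run of 3 or more with gaps of up to 100 kb was found; there were 17 pairs and 646 single regions. The median gap to the next of the 680 was 1510242.5 bp, against 1452785 bp from all merged regions and 1481476 bp from regions held by all 9 lists.

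The tightest pair was chr1:191907821-191908164 and chr1:191908916-191909623, 751 bp apart. Neither had any deposited WX-02-23 peak, and the nearest region held by a WX-02-23 list lay 23440 bp from the second. The first had 21, 16 and 26 fragments in DMSO and 16, 23 and 30 with WX-02-43, and the second 20, 23 and 24 and then 21, 29 and 21. The pair chrX:128063251-128063659 and chrX:128065082-128065434 had a gap of 1422 bp, and chr11:75350788-75351355 and chr11:75353462-75353825 a gap of 2106 bp. In both of these pairs each region had a weak peak in WX-02-23 replicate 1.

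The gap to open chromatin shared by all libraries was close to that of the regions kept only with WX-02-23. The median gap to the nearest region held by all 9 lists was 16996.5 bp, against 15977 bp for the 916 regions kept only with WX-02-23, 14139 bp for the other regions held by 6 of 9 lists and 13094 bp for all merged regions. A region held by at least 1 WX-02-23 list lay within 1 kb of 79 of them (11.6%), against 16.3% of the other regions held by the same 6 lists. Gaps to the 916 regions kept only with WX-02-23 had a median of 1069616 bp, and 56 of the 680 (8.24%) had such a region within 100 kb, against 6.85% of all merged regions.

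Regions near the 680 that every library held were not chosen by the rule, but they were ranked in the same lists. Some lie very close, such as chr11:84848350-84849040 at 107 bp from a member, so they are not separate evidence. WX-02-23 was compared with the mean of DMSO and WX-02-43 by limma on the rank scores of the 54912 regions held by all 9 lists, a comparison added after the data were seen. Over all of them 964 (1.76%) were lower with WX-02-23 and 620 (1.13%) higher at an adjusted p under 0.05. Of the 318 that lay within 10 kb of one of the 680, 13 (4.09%) were lower and 5 (1.57%) higher. The shares lower were 2.64% at 10 to 50 kb, 2.25% at 50 to 250 kb, 1.8% from there to 1 Mb and 1.61% beyond. The median difference of the 318 was 0.016 score units, and 46.9% of them were below 0, against 50.3% over all regions. The median of these neighbours thus did not lie below 0. Without 1 library at a time the calls over all regions fell to 191 to 509 higher and 513 to 691 lower, the fewest without WX-02-23 replicate 3. Within 10 kb of the regions kept only with WX-02-23, 2.71% were lower and 2.51% higher. The median difference of these 479 neighbours was −0.055 score units, and 59.7% of them were below 0.

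Among the 13 lower neighbours, the smallest p-value belonged to chr3:161129711-161130286, which lay 4451 bp from one of the 680; it and the others in this paragraph were chosen after their values were seen. It had 55, 67 and 59 fragments in DMSO, 62, 68 and 71 with WX-02-43 and 29, 19 and 25 with WX-02-23. The score difference was −1.47 ± 0.11 SE (limma adjusted p = 0.000898), and the WX-02-23 libraries did not overlap the others. At chr2:62754682-62755463, 1454 bp from another, there were 47 to 63 fragments in the other 6 libraries and 23, 14 and 26 with WX-02-23 (−1.45 ± 0.23 SE, limma adjusted p = 0.0122). The opposite was seen at chr7:17252139-17252628, 2541 bp from one of the 680. It had 14, 24 and 16 fragments in DMSO, 25, 28 and 25 with WX-02-43 and 71, 58 and 54 with WX-02-23 (1.43 ± 0.22 SE, limma adjusted p = 0.0121). The nearby member was chosen by the rule for its missing WX-02-23 peaks, and this neighbour by its value, so their closeness was not tested.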

How the data were processed

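The members and tests were chosen with earlier results of these data known. Bowtie2 alignment to hg19 and MACS2 peak calling, 1 list per library, are per the submitters' processing notes, with settings not given in the sources used here. The deposited columns used were the fold enrichment (a ratio over local background), the −log10 p and −log10 q at the summit, and the summit position. Fold and p were solved for the summit pileup under a Poisson model; a whole number matched within 0.002 in −log10 p for 100.0% of peaks. The longest list holds 105132 peaks on chromosomes 1 to 22 and X. Their last kept peak had a −log10 p of 4.1 in DMSO replicate 1 to 9 in DMSO replicate 3, and 6.94 to 8.87 in WX-02-23. The deposited score was not used. Read totals were not analysed here; the commonest background of 1 to 1.41 fragments describes relative depth.

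Ranks became normal scores and were compared with limma 3.58.1 (R 4.3.3), Benjamini-Hochberg adjusted over all regions tested, and the code was tested on simulated data. A region's strongest kept peak stood for it. Named regions were the 20 with the best lowest rank over the 6 lists, the 5 members with the poorest lowest rank, the 5 regions with the best lowest rank among those kept out by 1 WX-02-23 list, the 3 smallest p-values per direction, the 3 tightest pairs and the 3 widest. Motifs and gene lists were not analysed. Coordinates are hg19, counted from 1.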

Additional observations from a re-analysis of the deposited data

How the results depend on the processing

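The number of regions stayed within 1.5 times of 680 under 6 other settings, but the share of the 680 that met the rule differed. It was 469 in the deposited lists in full (274 of the 680 met the rule), 487 with 50000 peaks per list (59 of the 680), 608 with lists ranked by fold (391), 576 at a −log10 q of at least 5 (566), 662 with at least 50% of the region covered (414) and 715 in summit windows (665). The 274 and the 59 follow from the settings themselves. Exactly 274 regions had no deposited WX-02-23 peak, and 59 had all 6 ranks within the first 50000. Without each library in turn, which leaves fewer lists to satisfy, the number of regions ran from 775 to 1059, the highest without WX-02-23 replicate 1. A weak WX-02-23 peak was found at 406 regions by any overlap and at 229 when it had to cover 50% of the region, a stricter demand. Of the 487 regions found with 50000 peaks per list, 428 (87.9%) had a WX-02-23 peak in the longer kept lists of the main setting. The share of regions with another within a set distance was 1.47% at 20 kb and 39.1% at 1 Mb, as the distance implies.

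For WX-02-43 against DMSO, trended robust variances gave 1 region higher and 11 lower and log2 fold enrichment gave 1 lower; the cause was not tested. The other settings, each library left out and the replicate block gave 0 in both directions, with a smallest adjusted p of 0.221 to 0.642 by limma; without each library the counts ran from 0 to 0. For WX-02-23 against the others, the replicate block gave 403 higher and 608 lower regions in place of 620 and 964. Without each library the counts were 191 to 509 higher and 513 to 691 lower, lowest without WX-02-23 replicate 3. Both counts moved by over 1.5 times without any 1 WX-02-23 library and without WX-02-43 replicate 2 or 3, and the lower count also without DMSO replicate 2 or 3. Same-numbered libraries did not deviate together (correlations of −0.016 to 0.036), so the numbers are not taken as pairs. Motif shares were not run. At the commonest background, the calling floor was 6 fragments in WX-02-23 replicate 2 and 7 in every other library, and its relation to depth was not tested.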
